A study of Mus musculus with 4 samples.

Results

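The genes of ADP-ribosylation followed here in proteasome-inhibited macrophages were 10 in number. They were 9 members of the PARP family (*Parp1*, *Parp2*, *Parp3*, *Parp8*, *Parp9*, *Parp10*, *Parp11*, *Parp12* and *Parp14*) and *Dtx3l*, whose product binds that of *Parp9*. They were chosen by name, with no threshold on a measured value, but with earlier results of these data known. They make up 10 of the 20144 genes that could be named on the array. The 10 genes were read by 11 probes, since *Dtx3l* had 2 probes. Of these genes, 6 (*Parp9*, *Parp10*, *Parp11*, *Parp12*, *Parp14* and *Dtx3l*) are known as interferon-inducible and were compared with *Parp1* and *Parp2*, while *Parp3* and *Parp8* were kept apart.

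RNA was taken from J774.1 cells, a mouse monocyte-macrophage cell line, after 4 hours with an inhibitor at 1 μM or with the solvent DMSO. The inhibitors were MG132, which blocks the proteasome, epoxomicin, which blocks its 20S core, and ONX0914, which blocks the β5 and β5i subunits. Each condition was read on 1 single-color array, and the 4 arrays lay on 1 slide. For the ONX0914 array, the label gives ONX-0912 as treatment, but its treatment protocol and the paper give ONX0914. No condition was replicated, so no difference below has a test or a replicate error, and no P value is given.

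PARP enzymes take NAD and transfer its ADP-ribose onto proteins or nucleic acids, as long chains or as single units. PARP1 and PARP2 make chains at DNA breaks and help recruit repair factors there, and their genes are expressed in most cells. Several other PARP genes are transcribed in response to interferon and act in antiviral defense and in the signaling of macrophages, where they add single units or, as PARP9 does, work through a partner protein.

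Upstream sequences were examined first, because interferon-inducible genes often carry binding motifs for interferon-activated factors near the start of transcription. The motifs were the core of the interferon-stimulated response element (ISRE; GAAANNGAAA, bound by IRF proteins) and the gamma-activated site (GAS; TTCNNNGAA, a motif of the response to interferon-γ). Both strands were searched over 300 bases, from 250 before to 50 after each start in RefSeq (GRCm38.p6). *Parp9*, *Parp10* and *Parp14* had no entry in the sequence table used here, so 7 of the 10 genes could be searched, with 8 windows. The upstream 250 bases are printed here for *Parp11*, the only one of the 7 with either motif, for *Parp12* as an interferon-inducible gene with none in this window, for *Parp1* as a DNA-break gene, and for *Parp4* as a PARP gene outside the 10 that has ISRE cores. Letters are 5′ to 3′ on the strand of the gene, and capitals mark motif matches.
*Parp11*, chr6:127446590-127446839, + strand: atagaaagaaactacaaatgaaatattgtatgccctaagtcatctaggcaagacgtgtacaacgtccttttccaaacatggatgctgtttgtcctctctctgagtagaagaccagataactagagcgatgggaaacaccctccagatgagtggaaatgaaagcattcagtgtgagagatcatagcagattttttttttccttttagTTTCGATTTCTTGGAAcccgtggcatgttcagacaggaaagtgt
*Parp12*, chr6:39118350-39118599, - strand: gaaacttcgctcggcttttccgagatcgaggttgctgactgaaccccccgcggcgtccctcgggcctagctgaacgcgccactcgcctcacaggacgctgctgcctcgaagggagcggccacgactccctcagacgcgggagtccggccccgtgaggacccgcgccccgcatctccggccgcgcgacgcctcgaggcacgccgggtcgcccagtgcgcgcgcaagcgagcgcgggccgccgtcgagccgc
*Parp1*, chr1:180568641-180568890, + strand: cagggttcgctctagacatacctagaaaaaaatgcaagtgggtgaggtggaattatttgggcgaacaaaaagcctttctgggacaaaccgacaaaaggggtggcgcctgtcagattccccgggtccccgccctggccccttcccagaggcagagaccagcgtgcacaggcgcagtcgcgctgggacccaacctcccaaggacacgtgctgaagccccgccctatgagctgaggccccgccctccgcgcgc
*Parp4*, chr14:56575369-56575618, + strand: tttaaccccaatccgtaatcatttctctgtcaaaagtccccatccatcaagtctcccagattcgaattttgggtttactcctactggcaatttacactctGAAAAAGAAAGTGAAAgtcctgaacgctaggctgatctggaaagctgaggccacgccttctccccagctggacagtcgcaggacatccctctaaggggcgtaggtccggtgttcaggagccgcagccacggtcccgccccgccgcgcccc

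In *Parp11* the capitals cover an ISRE core read on the opposite strand (TTTCGATTTC, first base at position -44 from the start) and a GAS (TTCTTGGAA, first base at -37), which overlap. The second *Parp11* window held neither motif. In *Parp4* the capitals cover 2 overlapping ISRE cores, GAAAAAGAAA at -150 and GAAAGTGAAA at -144. No match was found in the windows of *Parp12*, *Dtx3l*, *Parp1*, *Parp2*, *Parp3* or *Parp8*. Of all 32851 RefSeq windows, 3.44% held an ISRE core and 8.30% a GAS. A match here is a description of letters, and a window without one says nothing of sites elsewhere.

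The values reported are the background-subtracted signals of the spots, in arbitrary units, and a log2 difference is taken after each array was shifted by its 75th percentile. A difference was counted when it reached 2-fold (1 on the log2 scale). All 11 probes were well above background on all 4 arrays, and each was printed once. The only error at hand for these probes was that of the scanner software. It was about 10% of a signal, and 13.2% for the second *Dtx3l* probe with DMSO. For the main probes it amounts to an error of 0.20 to 0.21 on each member's log2 difference. For other probes, printed 10 times, the median SD between spots was 0.0559 to 0.0615 on the log2 scale of the signal. The software error was nearly the same for every main probe, so it is not a spread measured at each spot. It does not cover the culture. Lower RNA per cell and fewer cells that express a gene cannot be told apart in bulk RNA.

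The interferon-inducible genes were higher with every inhibitor, except that *Parp11* was level with DMSO for ONX0914 (-0.01) under another background correction (normexp). All 6 were at least 2-fold higher with MG132 and all 6 with epoxomicin, whereas 3 of the 6 (*Parp9*, *Parp14* and *Dtx3l*) reached 2-fold with ONX0914. None of *Parp1*, *Parp2*, *Parp3* and *Parp8* reached 2-fold in either direction. Thus 6, 6 and 3 of the 10 genes were at least 2-fold higher and 0 were lower. With normexp correction the counts of higher genes were 5, 5 and 4. Of all genes compared, 6.77% were at least 2-fold higher under MG132, 7.96% under epoxomicin and 3.13% under ONX0914, and 4.05%, 4.80% and 1.43% were at least 2-fold lower. The 3 genes past 2-fold with all of the inhibitors compare with 1.93% of all genes. The 3 comparisons share the DMSO array, so they are not independent of each other.

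**Figure D1:**
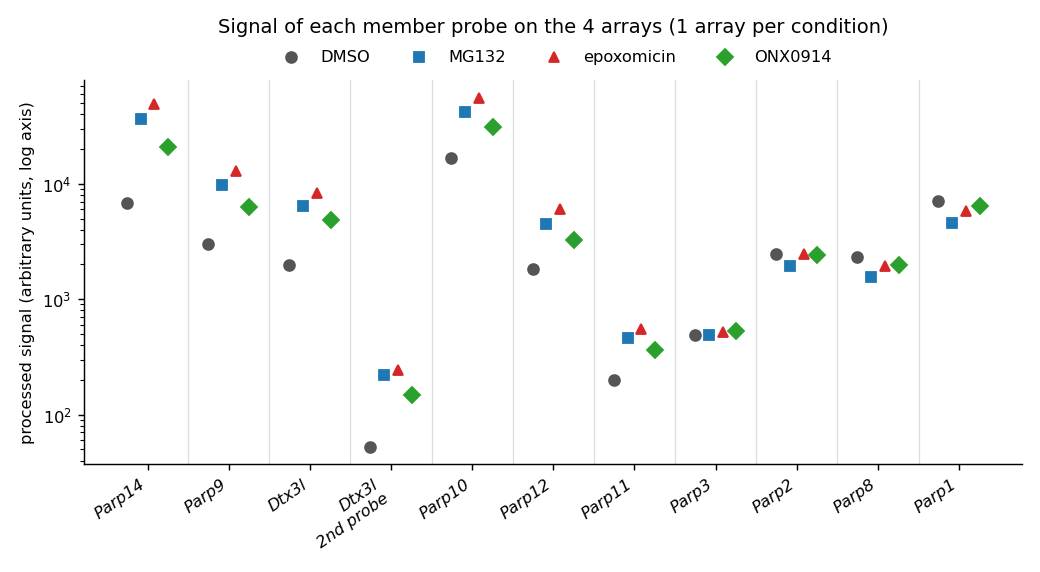
Background-subtracted signal (arbitrary units, log axis) of the 11 probes on the 4 arrays, with 1 point per array and no error bars, since each condition had 1 array. The DMSO point is the lowest for each of the 6 interferon-inducible genes and the highest for *Parp1*, *Parp2* and *Parp8*; levels of different probes are not comparable.

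*Parp14* encodes a large PARP with macrodomains that acts in IL-4 and interferon signaling of macrophages. Its signal was 6787 for DMSO, against 36120 for MG132, 49234 for epoxomicin and 20944 for ONX0914. The inhibitor arrays were 5.92-fold, 6.99-fold and 3.13-fold above the DMSO array, which corresponds to 2.57, 2.81 and 1.64 on the log2 scale. These were the greatest differences among the 10 genes with each inhibitor, at ranks 148, 155 and 180 from the top of all genes compared. On the log2 scale, the ONX0914 array was below the MG132 array (-0.92, short of 2-fold) and below the epoxomicin array (-1.16), with 1 array each.

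*Parp9* encodes a macrodomain protein with little or no activity alone, and *Dtx3l* encodes its partner, a ubiquitin ligase of the Deltex family. The *Parp9* signal was 3001 under DMSO, compared with 9802 under MG132, 13033 under epoxomicin and 6303 under ONX0914. The log2 differences from DMSO were 1.86, 2.07 and 1.09. The *Dtx3l* signal was 1978, 6460, 8355 and 4848 in the same order, which gave 1.86, 2.03 and 1.31. The second, dimmer *Dtx3l* probe read 52.6, 222, 245 and 148 and gave 2.23, 2.17 and 1.51, so both probes were above 2-fold with each inhibitor. *Parp9* and *Dtx3l* are direct neighbors on chromosome 16 in RefSeq, and *Parp14* lies next to them with only 2 pseudogenes between it and *Dtx3l*. These 3 genes of 1 locus were also the 3 that passed 2-fold with ONX0914. The cutoff fell between *Parp9* (1.09) and *Parp10* (0.90), and *Parp10* also passed it under another background correction (1.08).

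*Parp10* and *Parp12* encode enzymes that add single ADP-ribose units, and PARP12 belongs to the zinc-finger PARPs with antiviral activity. *Parp10* had a signal of 16756 in the DMSO culture, 42313 in the MG132 culture, 55902 in the epoxomicin culture and 30829 in the ONX0914 culture. Its log2 differences were 1.49, 1.68 and 0.90. The *Parp12* signal was 1825, 4459, 6026 and 3260 in the same order, with log2 differences of 1.44, 1.67 and 0.86. Both genes thus passed 2-fold with MG132 and epoxomicin and lay just under it with ONX0914, at 1.86-fold and 1.81-fold. *Parp10* reached 2-fold with ONX0914 under another background correction (1.08).

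*Parp11*, the gene with both motifs upstream, encodes an enzyme of the nuclear envelope that adds single ADP-ribose units and has been tied to the interferon receptor. It was read by the dimmest main probe of the 10 genes, with signals of 200, 460, 552 and 366. Its log2 differences were 1.36, 1.41 and 0.89, the smallest of the 6 interferon-inducible genes with MG132 and with epoxomicin. This gene depended most on the background correction: with normexp correction the differences were 0.50, 0.52 and -0.01, so that its 2-fold calls were lost. The cause was not tested.

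*Parp1* and *Parp2*, the genes of the DNA-break enzymes, were close to or below their DMSO levels. *Parp1* had a signal of 7086 in the DMSO culture, 4589 after MG132, 5774 after epoxomicin and 6456 after ONX0914. Its log2 differences were -0.47, -0.35 and -0.12, of which the first 2 exceeded the software error of 0.20. The *Parp2* signal was 2480, 1926, 2464 and 2406, with log2 differences of -0.21, -0.06 and -0.03. The latter 2 were within the software error. Both genes were lowest on the MG132 array. With normexp correction their differences for ONX0914 were 0.01 and 0.05.

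*Parp3*, which encodes another PARP of DNA-break repair, read 485, 488, 515 and 530, with log2 differences of 0.16, 0.03 and 0.14. All were within the software error of 0.21, and all became negative with normexp correction (-0.12, -0.21 and -0.15). *Parp8*, whose product adds single ADP-ribose units and whose role is little known, read 2309, 1555, 1955 and 1993. Its log2 differences were -0.42, -0.29 and -0.19. *Parp8* therefore lay closer to *Parp1* (distance 0.11 over the 3 log2 differences) than to any other of the 10 genes.

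**Figure D2:**
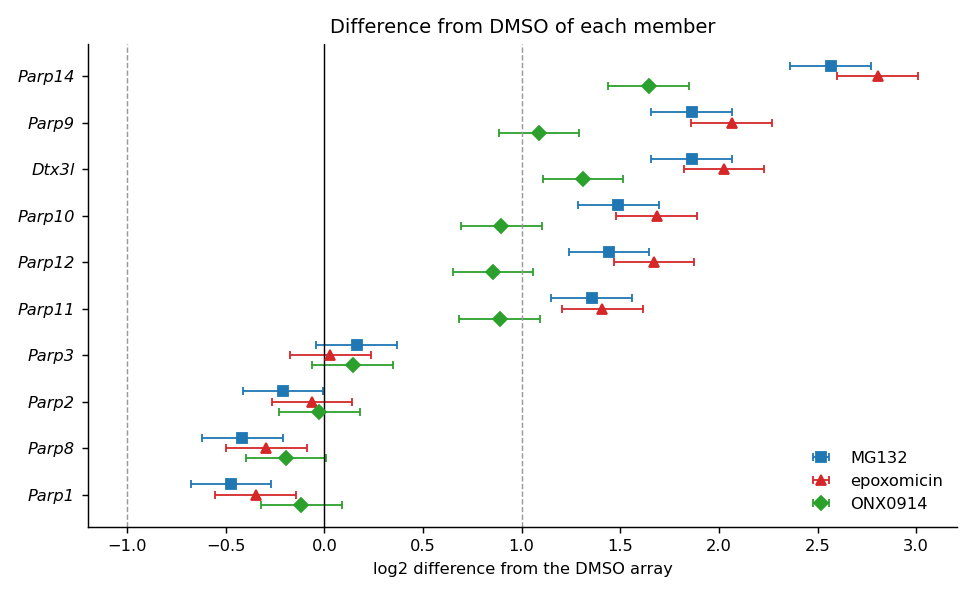
Log2 difference of each gene from the DMSO array with each inhibitor, after the shift by the 75th percentile. Bars are the scanner software's error of the spot (0.20 to 0.21), not a replicate error, and dashed lines mark 2-fold; the 6 interferon-inducible genes lie between 0.86 and 2.81, and the other 4 between -0.47 and 0.16.

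The groups did not overlap with any of the inhibitors, except that with normexp correction *Parp11* (-0.01) lay below *Parp1* (0.01) and *Parp2* (0.05) for ONX0914. The median log2 difference of the 6 interferon-inducible genes was 1.68 for MG132, 1.86 for epoxomicin and 0.99 for ONX0914. That of *Parp1* and *Parp2* was -0.34, -0.21 and -0.07, against -0.05, -0.07 and -0.02 for all genes compared. The gap between the group medians was 2.02, 2.06 and 1.06, or 4.05-fold, 4.17-fold and 2.09-fold. The lowest interferon-inducible gene stood above the higher of *Parp1* and *Parp2* by 1.57, 1.47 and 0.88. With each inhibitor, 95.5% or more of all genes compared had a difference at or below that of each interferon-inducible gene. For *Parp1* and *Parp2* that share ran from 18.7% to 50.2%.

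**Figure D3:**
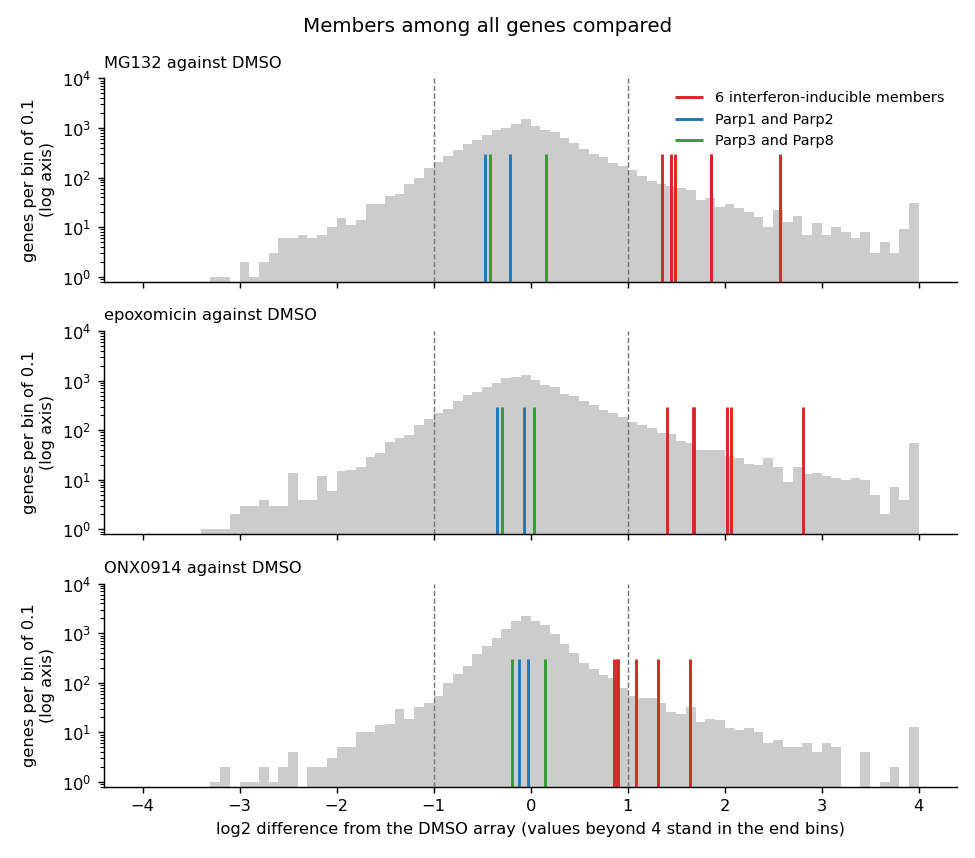
Number of genes (log axis) by their log2 difference from the DMSO array in bins of 0.1, with 1 panel per inhibitor (13994, 14052 and 13982 genes) and values beyond 4 in the end bins. Vertical lines are the 10 genes: the red lines of the 6 interferon-inducible genes stand in the right tail of each panel, and the blue and green lines of the other 4 stand near the middle.

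The inhibitors were also set against each other at the same dose and time. By their main probes, all 6 interferon-inducible genes had one order of levels: DMSO lowest, then ONX0914, then MG132, and epoxomicin highest. However, the difference of *Parp11* between ONX0914 and DMSO was -0.01 with normexp correction. The second *Dtx3l* probe put MG132 (2.23 from DMSO) slightly above epoxomicin (2.17). The step from MG132 to epoxomicin was 0.05 to 0.24 on the log2 scale, which was near or below the software error. With no scaling between arrays this step was greater, for example 0.45 for *Parp14* and 0.41 for *Parp9*. ONX0914 was below MG132 by more than the software error in each of the 6 genes, with log2 differences between -0.92 (*Parp14*) and -0.47 (*Parp11*). ONX0914 was below epoxomicin by -1.16 in *Parp14*, -0.98 in *Parp9*, -0.81 in *Parp12*, -0.79 in *Parp10*, -0.71 in *Dtx3l* and -0.52 in *Parp11*. Of the 10 genes, 0 differed by 2-fold between epoxomicin and MG132 and 0 between ONX0914 and MG132, and 1 (*Parp14*, 2.24-fold) did between ONX0914 and epoxomicin. Of all genes compared, 1.51%, 4.02% and 5.90% did so in either direction. *Parp9* was 1.97-fold lower with ONX0914 than with epoxomicin and passed 2-fold under 4 of the 9 other ways of scaling or reading the arrays.

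Among *Parp1*, *Parp2*, *Parp3* and *Parp8*, the inhibitors differed by 0.36 or less on the log2 scale. *Parp1* was higher with ONX0914 than with MG132 by 0.36 and than with epoxomicin by 0.23. *Parp2* was higher with ONX0914 than with MG132 by 0.19, within the software error. Without replicate cultures, none of these values shows that the inhibitors acted alike or differently on a gene.

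The genes with the most similar pattern were found by the distance over the 3 log2 differences from DMSO, which share the DMSO array, among genes well above background on all arrays. Closest to *Parp14* were *Ccl7* (a chemokine that attracts monocytes; distance 0.11), *Glipr1l1* (0.12) and *Ifi47* (an interferon-inducible GTPase; 0.12). Closest to *Parp9* were *Tor3a* (0.07), *Gdf9* (0.08) and *Gvin1* (a large interferon-inducible GTPase; 0.13). Closest to *Dtx3l* were *Csprs* (0.06), *Tap1* (a transporter of peptides for MHC class I; 0.12) and *Gm7609* (0.12). Closest to *Parp1* were *Rnpep*, *Akr1b3* and *Apoo* (0.03 each). Among the 10 genes themselves, *Parp10* and *Parp12* lay 0.07 apart, and each was second in rank to the other among 12728 genes. *Parp9* and *Dtx3l* lay 0.23 apart.

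Other genes of ADP-ribosylation were taken from 5 lists, which hold 41 genes with a probe, of which 39, 39 and 38 could be compared. At least 2-fold higher were 3 genes under MG132, 4 under epoxomicin and 0 under ONX0914, and 0 were lower. Of all genes compared, 6.77%, 7.96% and 3.13% were at least 2-fold higher, and 4.05%, 4.80% and 1.43% lower. The counts of the lists lay near those shares. The median log2 differences of the listed genes were 0.07, 0.06 and 0.02. The genes past 2-fold with MG132 were *Zc3hav1*, *Dtx1* and *Nampt*, with *Tiparp* in addition with epoxomicin. *Dtx1* and *Nampt* were named after their values were seen.

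Of the 7 other PARP genes, *Zc3hav1* and *Tiparp* were those past 2-fold with epoxomicin. *Zc3hav1*, which encodes the antiviral zinc-finger protein PARP13, read 1196 under DMSO, 2950 under MG132, 3366 under epoxomicin and 1807 under ONX0914. Its log2 differences were 1.46, 1.44 and 0.61. *Tiparp*, a target of the aryl hydrocarbon receptor that encodes PARP7, read 1963, 3525, 6148 and 2012, with log2 differences of 1.00 (just under 2-fold), 1.59 and 0.05. Its second probe gave 1.16, 1.46 and 0.00. *Parp4*, which encodes the vault PARP and has 2 ISRE cores upstream, read 1275, 1205, 1410 and 1349, with differences of 0.07, 0.09 and 0.10. A second, dimmer *Parp4* probe gave -0.01, -0.45 and -0.05, opposite in sign, so no direction is given for this gene.

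The remaining PARP genes were *Parp6*, *Parp16* (an enzyme of the endoplasmic reticulum), *Tnks* and *Tnks2* (the tankyrases). By their main probes, the log2 differences of these genes lay between 0.07 and 0.69. However, *Tnks* turned negative under normexp correction with epoxomicin (-0.03) and ONX0914 (-0.28). The second, dimmer *Tnks2* probe gave 0.73, 0.80 and 0.42, against 0.29, 0.36 and 0.07 by the main one. The 2 probes of *Parp6* were opposite in sign with each inhibitor (0.69 against -0.28 with MG132), so no direction is given for it.

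*Dtx1* encodes another Deltex ligase and read 69.3 with MG132 and 131 with epoxomicin, and it was not well above background with DMSO or ONX0914. It was at least 5.25-fold higher with MG132 and at least 8.57-fold higher with epoxomicin than with DMSO. These bounds were lost with normexp correction. *Dtx2*, *Dtx3* and *Dtx4* lay between -0.60 and 0.27 on the log2 scale. Of the 9 genes that remove ADP-ribose, such as *Parg* (the main glycohydrolase of the chains), *Macrod1* and *Nudt16*, none passed 2-fold. By their main probes they lay between -0.65 (*Macrod2* with epoxomicin) and 0.49. The probes of *Macrod2* disagreed, so no direction is given for it. One gave 0.505, 0.454 and 0.167, and the others were negative with each inhibitor, down to -0.70. The 10 partners of PARP1 and repair factors, such as *Hpf1* (which directs PARP1 to serine) and *Xrcc1*, also had none past 2-fold. By their main probes these lay between -0.41 and 0.62.

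*Nampt* encodes the rate-limiting enzyme of NAD salvage, and NAD is the substrate of all PARP enzymes. It read 5062, 10981, 16283 and 9251, with log2 differences of 1.27, 1.63 and 0.89. The other 8 NAD genes compared lay below 2-fold with every inhibitor, and *Nmnat2* and *Sarm1* were not well above background on any array.

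**Figure D4:**
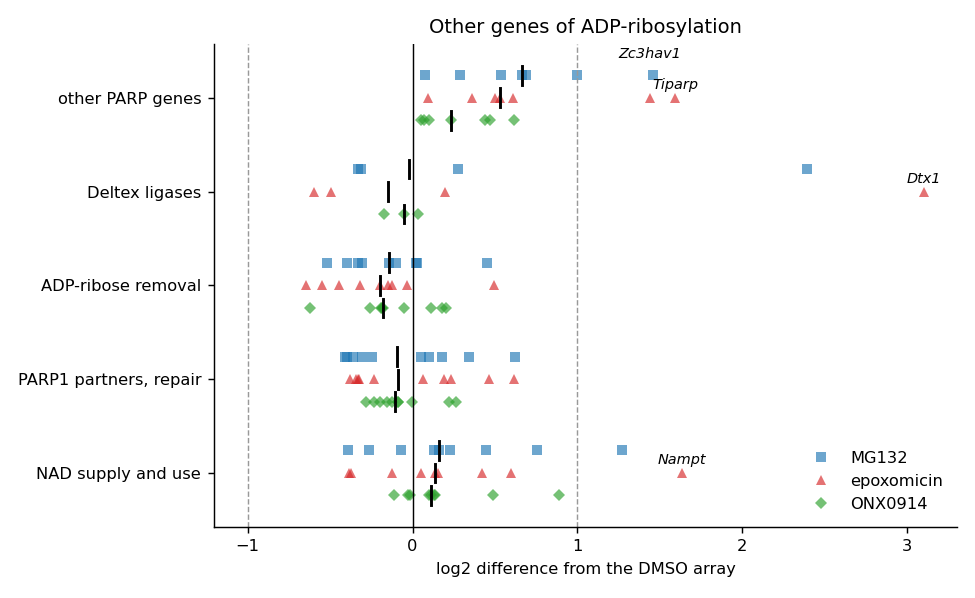
Log2 difference from the DMSO array of the other ADP-ribosylation genes, by list and inhibitor, with 1 point per gene and a black bar at each median (dashed lines, 2-fold). *Dtx1* points are lower bounds, and most genes lie within 2-fold of DMSO, apart from *Zc3hav1*, *Tiparp*, *Dtx1* and *Nampt*.

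Components of interferon signaling were read beside these genes. Of the 11 genes reported, 4 were at least 2-fold higher under MG132, 4 under epoxomicin and 3 under ONX0914. Among all genes compared the shares were 6.77%, 7.96% and 3.13%. *Stat2*, *Irf1* and *Irf7*, transcription factors of the interferon response, passed 2-fold with all of the inhibitors. *Stat2* read 4617, 20141, 25532 and 12637 and gave 2.28, 2.41 and 1.47. *Irf7* gave 2.95, 3.10 and 1.95, again lowest with ONX0914 among the inhibitors. *Irf1* gave 2.48, 2.77 and 2.61. A second, dim *Irf1* probe, not well above background with DMSO, read 91.5 with MG132, 106 with epoxomicin and 86.7 with ONX0914, so that the probes disagreed on the order of MG132 and ONX0914. The remaining gene past 2-fold with MG132 and epoxomicin was *Irf9* (1.22, 1.52 and 0.81), named after its values were seen.

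At least 2-fold lower were 3 of these 11 genes with MG132 and with epoxomicin and 0 with ONX0914. Among all genes compared the shares were 4.05%, 4.80% and 1.43%. The 3 lower genes encode receptor chains for interferon and were named after their values were seen. *Ifnar1* gave -1.26 and -1.38, *Ifngr1* -1.18 and -1.17, and *Ifngr2* -1.75 and -2.31. With ONX0914 they were also below DMSO, by -0.68, -0.71 and -0.78, short of 2-fold.

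The labelled cell type was checked by markers. All 7 macrophage markers with a probe, such as *Csf1r* and *Adgre1*, were well above background on all arrays, and *Cd68* had no named probe. *Lyz2* and *Spi1* were at least 2-fold lower with epoxomicin (-1.04 and -1.01). Of 7 markers of other cell types reported, the T-cell marker *Cd3e* and the endothelial marker *Pecam1* were well above background on all arrays. *Cd3e* read 850, 792, 604 and 735. The B-cell, NK-cell and epithelial markers *Ms4a1*, *Ncr1* and *Epcam* were well above background on none. Detection alone therefore does not settle the cell type. The epithelial keratin gene *Krt18* was well above background with epoxomicin only (a signal of 33.7) and counted as at least 2-fold higher there. The 8 reference genes reported, such as *Actb* and *Gapdh*, stayed within 2-fold of DMSO with every inhibitor. Their median was -0.15, -0.17 and -0.05.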

How the data were processed

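RNA of J774.1 cells was measured on 4 single-color (Cy3) arrays. The authors deposited the files that Feature Extraction 10.7.1.1 wrote, with raw and background-subtracted intensity values per spot and no scaling between arrays. They also deposited a table of log2 values, relative to each probe's median over the arrays, which was used as an alternative. Every column of values belonged to a sample (0 were left out). The file headers describe a mouse design on mm9, although a human one is named in the Methods, and their coordinates were not used.

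An array held 43020 non-control spots, of which 159 to 194 were left out as outliers, 0 were saturated and 60.3% to 63.1% were well above background. The log2 of each processed intensity was taken, spots of a probe were averaged, and the 75th percentile of the array was subtracted. Of 39429 probes, 67.4% received a symbol through RefSeq (GRCm38.p6). The probe with the highest mean stood for a gene. A gene was compared if 1 or both arrays of a pair read it well above background. A signal not well above background was replaced by the higher of itself and the lowest signal well above background on its array, and a difference against it is a bound ("at least"). With 1 array per condition no test was possible, and depth is not defined for arrays, whose number limits the precision. The median SD between the 10 spots of 399 probes was 0.0559 to 0.0615 on the log2 scale.

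The members and gene lists were chosen with earlier results of these data known. Some listed genes are not reported here and are left out of the counts of their lists. Named genes are the members, the other PARP genes, listed genes past 2-fold with all of the inhibitors, and the 3 genes nearest to *Parp14*, *Parp9*, *Dtx3l* and *Parp1*, apart from those said to be named later and examples of list members. Alternatives were other scalings, none, normexp (offset 50, on the median signal of a spot), the authors' table, the mean over probes, signals in place of bounds, outlier spots kept, another filter on dim probes, and 4-fold and 1.5-fold thresholds. The calculations were tested on simulated data. Python 3.11.15 (numpy 2.4.6, pandas 2.3.3, matplotlib 3.10.9) and R 4.3.3 (limma 3.58.1) were used.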

Additional observations from a re-analysis of the deposited data

How the results depend on the processing

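Under 9 other ways of scaling or reading the arrays, the gap between the interferon-inducible genes and *Parp1* and *Parp2* stayed between 1.97 and 2.04 (MG132), 2.06 and 2.09 (epoxomicin), and 1.06 and 1.11 (ONX0914). A shift of a whole array cancels in this gap, so the settings that only shift the arrays could not change it. The gap of medians also does not show the fall of *Parp11* with normexp correction. At a 4-fold threshold, 1 of the 10 genes was higher under MG132, 3 under epoxomicin and 0 under ONX0914, and at 1.5-fold 6 were higher with ONX0914. Of the other ADP-ribosylation genes, 1 was 4-fold higher with MG132 and 1 with epoxomicin, and 8, 7 and 2 were 1.5-fold higher with MG132, epoxomicin and ONX0914. The share of all genes past 4-fold or 1.5-fold is not given here. The counts at these thresholds therefore cannot be set against it. With normexp correction 1 of the other ADP-ribosylation genes (*Nampt*) was 2-fold higher with ONX0914. Normexp moved 18 of the 30 differences of the 10 genes from DMSO, by -0.89 to 0.20, changed the sign of 6 and took 3 across 2-fold, and no other setting took one across. The cause was not tested.

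No paired analysis was possible because each condition had 1 array. The design gives no replicate error, all inhibitor comparisons share the DMSO array, and *Parp9*, *Parp10* and *Parp14* had no promoter window here.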
